A study of Caenorhabditis elegans with 2 samples.

Results

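The regions described here are 212 places where SUP-37-eGFP was mapped in or close beside the shared upstream sequence of a pair of genes that point away from each other. They were chosen by the authors' pooled signal and by summit position. The 1500 regions of highest signal in the authors' pooled list of 30000 were taken, and a region was kept when its summit lay from 1000 bp upstream to 200 bp downstream of the 5' ends of at least 2 protein-coding genes on opposite strands. These 212 made up 14.1% of the 1500. Another 489 lay at the promoter of a single gene, 23 at promoters of several genes on 1 strand, and 776 at no protein-coding promoter. A further 691 regions of the pooled list met the same rule on position but ranked below the strongest 1500. They serve below as the weaker divergent regions. Of these, 0 were on the authors' list of reproducible peaks, and 270 (39.1%) had a summit within 200 bp in the lists of both replicates. The pooled list holds background regions as well as peaks, so many of the 691 may be background.

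SUP-37 is known from worm genetics through mutations that suppress the effects of pha-1 mutations. Its places on the genome were found by ChIP-seq, which recovers and sequences DNA fragments bound to a protein, in whole Caenorhabditis elegans larvae. The strain was OP611, which has the unc-119(tm4063) allele and an integrated transgene, wgIs611, that carries sup-37::TY1::EGFP::3xFLAG + unc-119(+). The larvae were L1, the first larval stage, of mixed sex, starved after bleaching and 6 hours old, and their chromatin was sonicated to fragments of 200 to 800 bp. There was 1 group of 2 biological replicates. The description names an antibody against GFP, whereas the antibody label reads sup-37. Since whole larvae were used, the signal is a sum over all tissues, and no untagged strain was analysed here. With 1 group no comparison between conditions could be tested, and regions are not replicates, so the values below are descriptions of these 2 libraries. The signal is the authors' own value per region, of unstated scale, and was used within 1 list at a time.

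A divergent promoter is a stretch of DNA between genes transcribed in opposite directions, so that 1 bound site can lie upstream of both. In worms, genes are packed closely, and many messenger RNAs receive a spliced leader by trans-splicing. The first bases of the primary transcript are then lost, and an annotated 5' end can be a splice site that lies downstream of the true start of transcription. Distances below are to annotated 5' ends of gene records (Ensembl, WBcel235, the same assembly as ce11).

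Short shared promoters show how the mapped sites sit in the sequence between a pair of genes. The 6 intervals printed here are from the highest-ranked of those with at most 300 bp between the ends, read from the RefSeq copy of WBcel235 on the plus strand from the left-hand gene (minus strand) to the right-hand gene (plus strand). In the printed intervals, capitals mark bases covered by any of the 10 words of 6 letters described further below, on either strand. The interval of cux-7 and C07H6.2 is chrIII:7520846-7521008. The interval of fbxb-85 and hex-3 is chrIII:10848964-10849221, and that of dnsn-1 and C24H12.4 is chrII:410933-411221. The interval of rpl-7A, of the large ribosomal subunit, and set-21, of a family of histone methyltransferase genes, is chrIV:4390591-4390843. The interval of sec-15, an exocyst gene, and C28G1.2 is chrX:8835716-8836015. That of jmjd-4 and mev-1, which encodes a succinate dehydrogenase subunit, is chrIII:10334019-10334276.
cux-7/C07H6.2: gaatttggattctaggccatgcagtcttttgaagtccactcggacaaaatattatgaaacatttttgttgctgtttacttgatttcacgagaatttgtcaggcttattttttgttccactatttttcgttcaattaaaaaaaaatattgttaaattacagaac
fbxb-85/hex-3: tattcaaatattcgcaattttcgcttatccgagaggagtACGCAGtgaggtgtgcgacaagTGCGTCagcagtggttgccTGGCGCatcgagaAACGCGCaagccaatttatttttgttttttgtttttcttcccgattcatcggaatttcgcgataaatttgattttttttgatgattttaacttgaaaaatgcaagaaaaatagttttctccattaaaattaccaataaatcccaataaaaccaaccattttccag
dnsn-1/C24H12.4: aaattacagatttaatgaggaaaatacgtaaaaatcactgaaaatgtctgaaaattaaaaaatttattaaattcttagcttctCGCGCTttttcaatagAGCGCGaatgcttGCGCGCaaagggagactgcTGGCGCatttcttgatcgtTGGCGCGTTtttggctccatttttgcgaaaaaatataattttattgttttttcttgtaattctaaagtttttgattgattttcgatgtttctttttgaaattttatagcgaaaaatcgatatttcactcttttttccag
rpl-7A/set-21: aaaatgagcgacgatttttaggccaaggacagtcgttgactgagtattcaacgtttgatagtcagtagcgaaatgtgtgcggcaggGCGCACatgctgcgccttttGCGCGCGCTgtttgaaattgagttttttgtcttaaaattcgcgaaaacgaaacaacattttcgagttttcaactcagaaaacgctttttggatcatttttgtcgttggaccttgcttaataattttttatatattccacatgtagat
sec-15/C28G1.2: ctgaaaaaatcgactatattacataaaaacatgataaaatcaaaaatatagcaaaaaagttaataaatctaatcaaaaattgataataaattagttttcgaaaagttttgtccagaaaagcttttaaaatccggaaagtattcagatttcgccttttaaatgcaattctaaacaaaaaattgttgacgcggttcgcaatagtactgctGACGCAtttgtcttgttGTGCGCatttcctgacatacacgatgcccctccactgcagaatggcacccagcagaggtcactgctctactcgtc
jmjd-4/mev-1: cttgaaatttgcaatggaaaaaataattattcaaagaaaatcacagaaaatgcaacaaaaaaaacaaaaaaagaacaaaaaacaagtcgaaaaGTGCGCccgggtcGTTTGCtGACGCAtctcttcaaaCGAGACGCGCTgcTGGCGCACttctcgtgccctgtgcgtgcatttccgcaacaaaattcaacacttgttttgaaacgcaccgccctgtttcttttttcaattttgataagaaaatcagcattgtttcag

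In some of these sequences the capitals stand in a cluster near the summit. In the jmjd-4 and mev-1 interval, 37 bases were capital, and the pooled summit lay at base 124, with replicate summits at bases 123 and 117. In the dnsn-1 and C24H12.4 interval, 33 bases were capital and the pooled summit lay at base 142. Summits of both replicates fell within or beside the capital run in both of these intervals. The cux-7 and C07H6.2 interval held none of the words, and its pooled summit lay 6 bp inside cux-7. In the sec-15 and C28G1.2 interval the pooled summit lay 36 bp inside C28G1.2, past the end of the printed stretch, while the replicate summits lay at bases 297 and 355. Its capitals stood to the left of all these positions, and none of the words lay within 50 bp of the pooled summit.

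Most summits lay in the DNA between the gene pair. Of the 212 summits, 188 (88.7%, exact binomial 95% interval 83.6 to 92.6, counting error only) were upstream of both ends, 23 were inside 1 gene and 1 was at a pair with overlapping ends. The rule itself favours positions between the ends, because it allows 1000 bp upstream and 200 bp downstream. Over the adjacent head-to-head pairs with such a region, a mean of 57.8% of the positions that the rule allows lay between the ends. For the weaker divergent regions the share was 66.0% (456 of 691), against a mean of 63.5% of allowed positions at pairs with weaker regions alone. The share between the ends was thus above the share of allowed positions for the 212, and close to it for the weaker regions. For the 212, the share between the ends was above that of allowed positions in each class of distance up to 1000 bp. It was 41 of 53 against 34.3% of positions at up to 300 bp, 72 of 80 against 52.1% at over 300 and up to 600 bp, and 48 of 51 against 69.6% at over 600 and up to 1000 bp. At longer distances every allowed position lies between the ends.

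**Figure D1:**
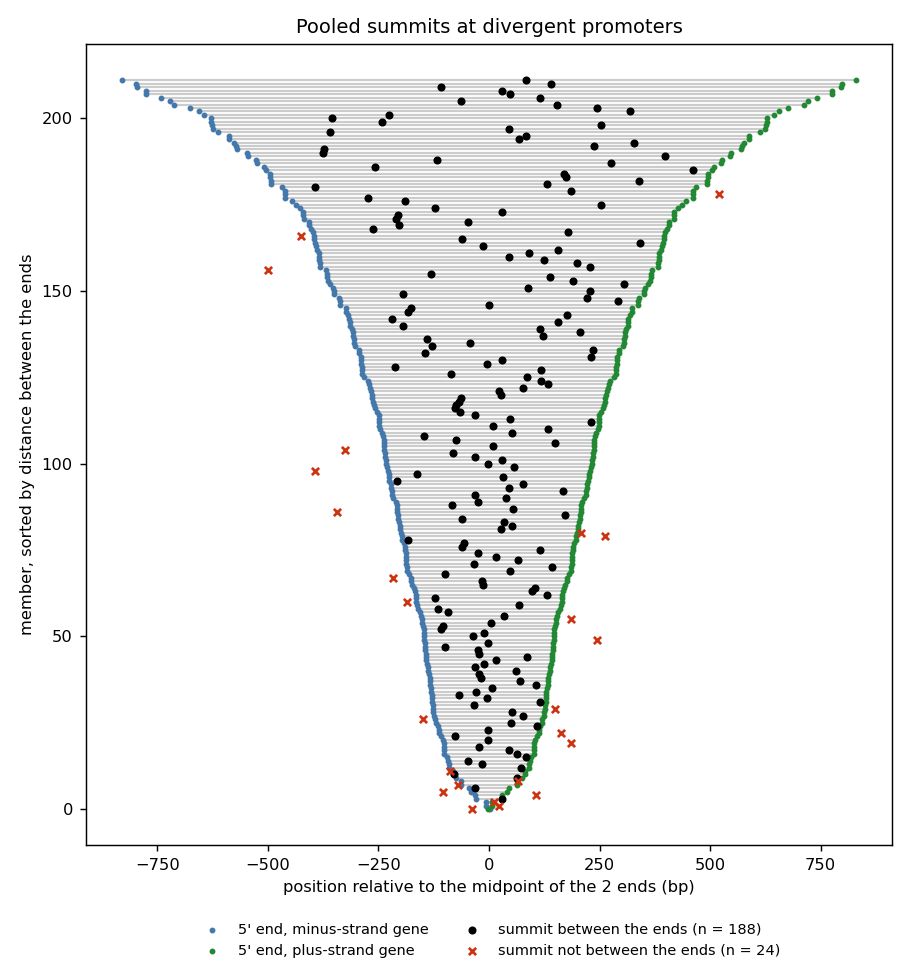
Position of each pooled summit relative to the midpoint of its gene pair in bp, with 1 row per region sorted by distance between the ends; blue and green points are the minus-strand and plus-strand 5' ends. Black summits (188) lie between the ends and red crosses (24) do not, and most of the crosses stand just outside an end.

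The rule allows a summit at most 200 bp inside a gene, so every exception had to lie near an end. Of the 24 summits not between the ends, 14 lay within 50 bp of the end they had passed. The deepest lay 164 bp inside tmem-107, a gene of the ciliary transition zone that is paired with rps-26. Next came summits 137 bp inside sec-61.A, of the protein translocation channel, which is paired with rps-18, and 131 bp inside dot-1.1, a histone methyltransferase gene paired with zwl-1. Those inside C50E3.5 and sftb-1 were at 99 and 89 bp. Another 5 summits were upstream of both ends and yet in the annotated body of another gene or on the first base of one of the pair. The bodies of htz-1, which encodes the histone variant H2A.Z, and of rpl-17 held 1 summit each.

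The ends of a pair were a median of 476 bp apart (quartiles 296.5 to 766.5 bp, range -3 to 1659 bp, n = 212), where a negative value means that the genes overlap. The median was 614 bp for the weaker divergent regions and 678 bp (366 to 1156 bp) for all 2560 adjacent head-to-head protein-coding pairs up to 2000 bp apart. The rule excludes pairs far apart, so the comparison with all pairs is made by class below. The shortest distances were 12 bp at F32D8.14 and F32D8.5, 15 bp at F25H9.6 and F25H9.7, 60 bp at Y57E12AL.6 and Y57E12AL.1, and 61 bp at F01F1.11 and F01F1.3. The longest were 1659 bp at mif-4 and ipla-6, 1598 bp at nmat-2 and rab-5, a gene of early endosomes, 1591 bp at wapl-1 and chat-1, and 1551 bp at both aps-3 and Y48G8AL.7 and the autophagy gene lgg-2 and fic-1. Rank and distance between the ends were nearly unrelated over the 212 regions, with a Spearman rho of 0.01. At these 5 pairs the summits were near the middle, at 0.45, 0.41, 0.43, 0.48 and 0.47 of the distance from the nearer end. The rule allows no summit more than 1000 bp from either end. The summit at wapl-1 and chat-1 lay in the body of htz-1, and that at aps-3 and Y48G8AL.7 in the body of rpl-17. Among all pairs with a region, 4 were not adjacent head-to-head pairs. The pair with overlapping ends was rpb-7, of RNA polymerase II, and Y54E10BR.2, whose ends overlap by 3 bp (rank 493).

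The nearer of the ends lay a median of 142.5 bp from the summit (quartiles 65 to 206 bp, n = 212), and 153 of 212 summits had an end within 200 bp. At single-gene promoters the median distance to the end was 262 bp. A site between a pair has an end on either side, so it is nearer to 1 of them by construction. Neither strand was consistently nearer, with the minus-strand end nearer in 97, the plus-strand end in 114 and both equal in 1. For the 188 summits between the ends, the distance to the nearer end was divided by the distance between the ends, which gives 0 at an end and 0.5 at the middle. Its median was 0.31 (quartiles 0.20 to 0.42), against 0.33 for the weaker divergent regions and 0.25 for an even spread. The even-spread value assumes that every position between the ends is allowed. For the 27 regions with ends over 1000 bp apart, the rule bars summits close to an end and so favours central positions. The median was 0.28 at up to 300 bp, 0.35 at over 300 and up to 600 bp, 0.26 at over 600 and up to 1000 bp, and 0.32 at longer distances. The central 33.3% of the interval held 84 of 188 summits (44.7%), against 49.3% of the weaker divergent summits between ends. By rank the median was 0.39 in the first 100 ranks, 0.32 beyond these up to rank 500, 0.28 up to rank 1000 and 0.30 up to rank 1500. By class of distance between the ends, shortest first, the nearer end lay a median of 69, 154, 190.5 and 410 bp away. The quartiles were 37 to 111, 86.75 to 188.5, 145.75 to 268 and 252.5 to 602.5 bp. Whether summits keep to a fixed distance from an end was not tested. The distance to the nearer end rose with the distance between the ends (Spearman rho 0.76, n = 188), which is partly set by construction, since it can be no more than 0.5 of that distance.

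The share of pairs with a region depended on how far apart the ends were. Of the 2560 head-to-head pairs, 205 (8.01%) had at least 1 of the 212 regions. The share was 10.2% (52 of 508) at up to 300 bp, 12.5% (77 of 615) at 300 to 600 bp, 8.20% (51 of 622) at 600 to 1000 bp and 3.07% (25 of 815) at 1000 to 2000 bp, each class starting past the one before it. The length of sequence in which the rule allows a summit differs between these classes. Per 100 kb of allowed sequence, 17.2, 14.7, 7.46 and 5.48 pairs had a region. The density fell from the shortest to the longest class, whereas the share of pairs was highest at 300 to 600 bp. Pairs with weaker regions alone made up 20.1%, 28.3%, 27.5% and 12.8% of the 4 classes.

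**Figure D2:**
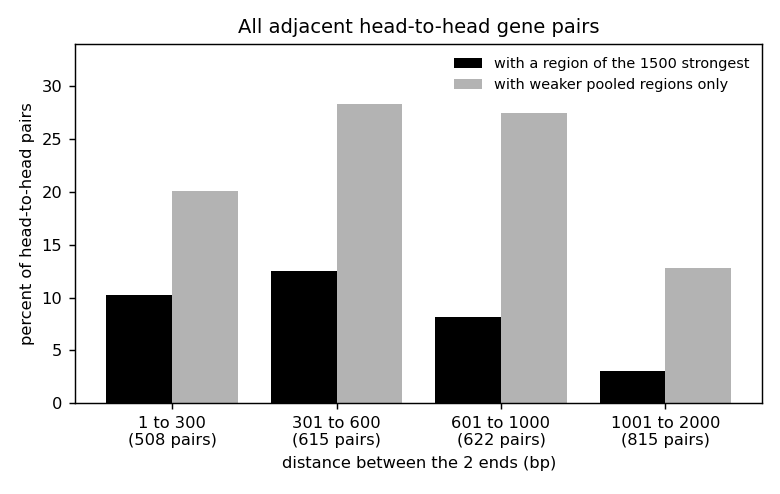
Percent of all adjacent head-to-head pairs in each class of distance between the ends (bp) that have a region of the 1500 strongest (black) or weaker pooled regions alone (grey). The black bars are highest at 300 to 600 bp (12.5%) and lowest at 1000 to 2000 bp (3.07%).

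Divergent promoters made up a falling share of regions down the pooled list. They held 28.0% of the 100 strongest regions, 19.8% of those past rank 100 and up to rank 500, 13.4% of those up to rank 1000 and 7.60% of those up to rank 1500. Beyond the chosen 1500 the share was 4.80% up to rank 5000 and 2.09% past it. The median signal of the 212 was 156 (quartiles 122 to 248, range 95.4 to 819), against 128 over all 1500 and 136 at single-gene promoters. These values were used to choose the regions and carry no test. At the threshold, the last region within the 1500 had a signal of 95.19 and the first beyond it 95.18. The last chosen region, at taf-6.2 and Y37E11AL.3, ranked 1493, and the first weaker divergent region ranked 1509. On position, the farthest end inside the window was 984 bp from a summit and the nearest outside it 1002 bp. Downstream, the deepest summit inside lay 164 bp into a gene and the nearest outside 203 bp.

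**Figure D3:**
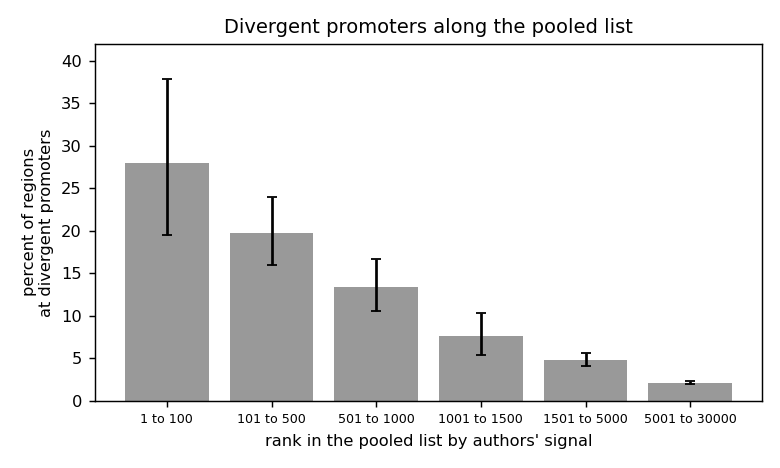
Percent of regions at divergent promoters in classes of rank in the pooled list, with exact binomial 95% intervals for counting error. The share is 28.0% in the 100 strongest regions and 2.09% past rank 5000; signal chose the members, so this is a description.

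Among the 12 strongest, all summits lay upstream of both ends, and replicate summits differed by 3 to 22 bp. The strongest, at K01G5.10 and tasp-1, a gene of the taspase family of proteases, held rank 2 among pooled regions, rank 2 in replicate 1 and rank 4 in replicate 2. The signal of this region was 819 in the pool, 456 on the list of replicate 1 and 369 on that of replicate 2. The summit lay 50 bp from tasp-1 and 735 bp from K01G5.10, so it was far from the middle. At gmps-1, which encodes GMP synthase, and cap-2, an actin capping protein gene, the summit lay 246 and 230 bp from the ends. At drr-2 and set-16, a histone H3 lysine 4 methyltransferase gene, the distances were 160 and 186 bp. The strongest regions therefore included both central and one-sided positions.

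Ribosomal protein genes were part of 4 of these 12 pairs. The region at rpl-20 and Y17G9B.5 ranked 8 in replicate 1 and 6 in replicate 2, and its summit lay 288 bp from rpl-20 and 174 bp from Y17G9B.5. The region at rpl-15 and K11H12.8 ranked 12 and 10, with its summit 359 bp from rpl-15 and 455 bp from K11H12.8. At rpl-12 and lin-54, a DNA-binding subunit gene of the DREAM complex that represses cell cycle genes, the ranks were 49 and 22. That summit lay 13 bp from rpl-12 and 380 bp from lin-54. At rps-1 and ifet-1, which encodes a translational repressor that binds eIF4E, the ranks were 43 and 38, and the summit lay 259 and 509 bp from the ends. The ribosomal gene was thus the nearer one at 3 of these pairs and the farther one at rpl-20.

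The other pairs of the 12 held genes of several roles. The region at nhl-2, a TRIM-NHL gene that acts with microRNAs, and tag-340 ranked 6 and 9 in the replicates and lay 865 and 558 bp from the ends, 1423 bp apart. At cct-8, of the cytosolic chaperonin, and Y55F3AR.2 the ranks were 9 and 20, and the summit was nearer Y55F3AR.2 (195 bp) than cct-8 (426 bp). At hsp-60, the mitochondrial chaperonin gene, and Y22D7AL.10 the ranks were 13 and 18, and the summit was again nearer the partner (204 bp) than hsp-60 (609 bp). The regions at F56G4.6 and wbp-4 and at gpap-1 and scpr-1 ranked 21 and 47 and 58 and 34 in replicates 1 and 2.

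The pairs held many genes of basic cell functions. The 212 regions lay at 209 distinct pairs, and 417 genes, 2.09% of the 19973 protein-coding genes, were 1 of a nearest pair. A gene of at least 1 of 17 lists of cellular functions, matched by name, was part of the pair at 105 regions (49.5%). In 14 both genes were on lists, and in 5 both were on the same list. Among the head-to-head pairs, 21.2% of the 477 with at least 1 list gene had a region, against 4.99% of the 2083 with none. The lists were chosen with earlier results of these data known, so this difference is a description and no support for enrichment. Where just 1 gene of the pair was on a list, the list gene was the nearer one in 37 of 91 regions (40.7%, exact binomial 95% interval 30.5 to 51.5). Position gives no answer to which gene of a pair is regulated.

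Genes of the cytosolic ribosome were the most frequent by share, with 18 of 81 at a region (22.2%). These were rpl-5, rpl-7A, rpl-12, rpl-15, rpl-20, rpl-22, rpl-25.2, rpl-39, rpl-43, rps-0, rps-1, rps-12, rps-15, rps-18, rps-19, rps-23, rps-26 and rps-30. Where 1 gene of the pair was ribosomal, 7 of 16 regions lay nearer the ribosomal gene. Their ranks were spread over the chosen range, from 4 at rpl-20 to 1132 at rpl-5, and the median rank was 180 in replicate 1 and 389 in replicate 2. Genes of mitochondrial ribosomes were at regions in 5 of 70 (7.14%), with mrps-7 (rank 209), mrpl-12 (283) and mrpl-45 (460) the strongest.

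Translation factor genes were at regions in 5 of 41 (12.2%). The strongest were iff-2, which encodes eIF5A (rank 56), eef-2, of elongation factor 2 (rank 79, paired with the claspin gene clsp-1), and eef-1G (rank 273). At eef-2 the summit lay 26 bp from its end and 239 bp from clsp-1. Of the aminoacyl-tRNA synthetase genes 1 of 32 was at a region, ears-2 (rank 279).

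Chaperone genes were at regions in 13 of 68 (19.1%). After cct-8 and hsp-60 came cct-1, of the cytosolic chaperonin, paired with the dishevelled gene mig-5 (rank 69, 185 bp from mig-5). Splicing genes were at regions in 9 of 64 (14.1%), led by prp-19 (rank 265), prp-8 (317) and sftb-6 (463). Proteasome genes were at regions in 4 of 43 (9.30%), and RNA decay and export genes in 8 of 90 (8.89%). In both of the latter lists the median rank was lower in replicate 1 than in replicate 2, at 1763 and 635 for the proteasome list and 2752.5 and 796 for the RNA list, although xpo-1 ranked 276 in replicate 1 and 942 in replicate 2. The strongest of the RNA list were ran-5 (rank 291), the exportin gene xpo-1 (393), and pabp-2, a nuclear poly(A)-binding protein gene (680).

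Membrane traffic genes were at regions in 14 of 132 (10.6%), with syx-5, a Golgi syntaxin gene (rank 61), sec-61.B, of the translocation channel (80), and apb-1, an adaptor complex gene (151), the strongest. The partner of sec-61.B was trap-3, which encodes a subunit of the translocon-associated complex. Oxidative phosphorylation genes were at regions in 6 of 68 (8.82%), led by nduf-2.2 (rank 148), mev-1 (182) and atp-1 (203). Genes of mitochondrial import and metabolism were matched in 5 of 43 (11.6%), led by ant-1.1, an ADP/ATP carrier gene (rank 121), and aco-2, mitochondrial aconitase (277). The name match also took tim-1, which in worms is the timeless homologue and not an import gene.

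Chromatin genes were at regions in 12 of 147 (8.16%), with set-16 (rank 34), rpl-7A's partner set-21 (163) and htz-1 (180) the strongest. The name match left out lin-53 and lin-54, which are chromatin genes and lie at the regions of rank 59 and 32. Cell cycle and replication genes were at regions in 8 of 65 (12.3%), led by the E2F gene efl-1 (rank 179), lin-35, the retinoblastoma gene (217), and the condensin gene hcp-6 (547). Genes of RNA polymerase and Mediator were at regions in 6 of 71 (8.45%), led by mdt-19 (151), mdt-26 (164) and taf-4 (333). Single genes were matched on the lists of ubiquitin enzymes (ubq-2, 1 of 81), autophagy (lgg-2, 1 of 29) and the vacuolar ATPase (vha-8, 1 of 21). The name match took ubq-2 although it encodes ubiquitin and not an enzyme. Without a test, no list is called particular to divergent promoters.

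Some pairs joined genes of 1 list. The SR splicing factor genes rsp-2 and rsp-1 had a summit 238 and 169 bp from their ends (rank 570). The ribosomal protein genes rpl-39 and rps-30 had one 217 and 282 bp from theirs (rank 826), and orc-5, of the origin recognition complex, and the cyclin B gene cyb-1 one at 119 and 509 bp (rank 833). The histone pairs his-67 and his-68 (rank 340) and his-35 and his-41 (rank 785) belong to a family with near-identical copies, so how reads were assigned to them is uncertain. The remaining 9 pairs joined 2 lists. They were apb-1 with mdt-19, hsp-110 with the proteasome gene rpn-3, rpl-7A with set-21, jmjd-4 with mev-1, vps-51 with lin-35, eef-1B.1 with aco-2, sec-61.A with rps-18, the proteasome gene rpt-2 with aps-1, and the proteasome gene pas-4 with the RNA polymerase II gene rpb-3.

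At 3 pairs 2 separate regions of the 1500 were found. They were pde-6 and Y95B8A.6 (ranks 81 and 454), tim-1 and Y75B8A.23 (88 and 909) and supr-1 and dnj-28 (756 and 1169). Another pooled region of any rank lay between the ends at 25 of the 212. A noncoding gene had its 5' end between the ends at 40, most often an ncRNA (37), and sls-2.8, an SL2 spliced leader RNA gene, lay between tim-1 and Y75B8A.23. At wapl-1, 2 regions had different nearest partners, htz-1 for the region of rank 180 and chat-1 for that of rank 911, whose summit lay in the body of htz-1. In 17 of the 212, 3 genes had the summit in their window.

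Few of the regions were on the X chromosome. It held 7 of the 212, although 300 of the 1500 strongest regions were there. The autosomes I to V held 44, 35, 49, 36 and 41. Of the head-to-head pairs on X, 7 of 178 had a region (3.93%), against 9.35% on I, 7.30% on II, 12.5% on III, 7.95% on IV and 6.18% on V. The X regions lay at sec-15 and C28G1.2 (rank 170), trap-2 and ile-2 (457), C27C12.1 and C27C12.4 (530), dnj-14 and glit-1 (691), nmat-1 and ucr-2.1 (979), flwr-1 and tbc-1 (1072), and cdf-2 and myo-2 (1080). The myo-2 gene encodes a pharyngeal myosin heavy chain, and the summit lay 334 bp upstream of it. That region ranked 1110 in replicate 1 and 1384 in replicate 2, its replicate summits were 147 bp apart, and it was not on the authors' list of reproducible peaks. It was named after its values were seen.

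The replicates placed most of these regions similarly. The authors' list filtered by irreproducible discovery rate (IDR) held 166 of the 212 (78.3%), against 61.6% of all 1500. Since that list consists of the strongest pooled regions, this share follows from signal. A summit within 200 bp was found among the 1500 strongest of both replicates for 139 of 212 (65.6%), against 52.6% of all 1500 and 2.74% of all 30000. Within ranks 1 to 500 the share was 93.5% (100 of 107), against 98.9% at single-gene promoters and 96.9% of regions at no promoter. Past rank 500 and up to 1000 it was 55.2%, 52.1% and 58.2%, and past rank 1000 it was 5.26%, 4.38% and 5.96%. At matched rank the shares at divergent promoters thus stood apart from the others in no single direction.

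The replicates were not equal in these regions. Replicate 1 had 161 of the 212 (75.9%) among its 1500 strongest and replicate 2 had 185 (87.3%), whereas over all 1500 regions the shares were 73.4% and 72.0%. At regions at no promoter they were 72.7% and 64.2%. The median rank of the 212 was 594 in replicate 1 and 472.5 in replicate 2. In replicate 1, 22 of the 206 regions listed in both were past rank 5000, against 5 in replicate 2. The 4 with the largest difference of rank were all lower in replicate 1. They were F25G6.9 and symk-1 (28529 against 294), cdc-6, a replication licensing gene, and acin-1 (26644 against 407), W04C9.6 and W04C9.2 (28676 against 765), and the second region at supr-1 and dnj-28 (25887 against 736).

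**Figure D4:**
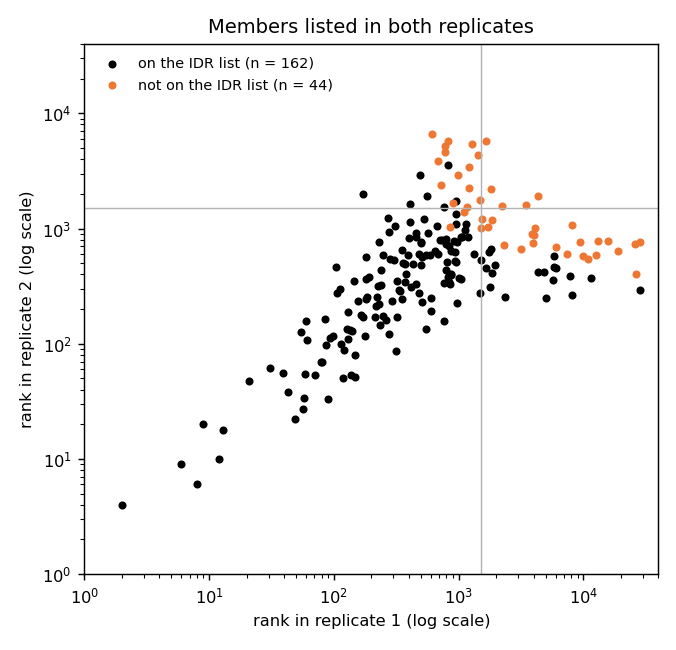
Rank of each of the 206 regions in replicate 1 (x axis) and replicate 2 (y axis), both on log scales, with grey lines at rank 1500; colour shows whether the region is on the IDR list. A tail of regions lies to the right, at ranks past 5000 in replicate 1 (22 regions) while most of these stand below the line for rank 1500 in replicate 2.

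A few regions were on the list of 1 replicate alone. Replicate 1 listed no summit within 200 bp at apb-1 and mdt-19, although replicate 2 ranked that region 106, and the nearest summit in replicate 1 was 3122 bp away. It also had none at rde-8 and ZC477.3 (rank 254 in replicate 2), at snx-13 and snr-1 (381) and at pas-4 and rpb-3 (755). Replicate 2 had none at rab-18 and the kinetochore gene kbp-4, which ranked 258 in replicate 1, with the nearest summit 14378 bp away. At agl-1 and pfs-2 its nearest summit was 217 bp away, just past the limit. The first 5 of these regions had a counterpart in 1 replicate alone.

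Where both replicates listed a summit, the positions were close. They differed by a median of 17 bp (quartiles 6 to 31.75 bp, highest 189 bp, n = 206), and 179 of 206 (86.9%) were within 50 bp. At single-gene promoters the median was 20 bp and 77.3% were within 50 bp, and over all 1500 the values were 22 bp and 74.3%. The share within 50 bp at divergent and single-gene promoters was 88.5% and 90.9% in ranks 1 to 500, 93.9% and 67.5% past rank 500 and up to 1000, and 69.4% and 69.3% past rank 1000, so divergent promoters were ahead in the middle class alone. By rank, the median for divergent and single-gene promoters was 12 and 13 bp at ranks 1 to 500, 17.5 and 29 bp past rank 500 and up to 1000, and 25.5 and 28 bp past rank 1000. When the rule was applied to each replicate's own 1500 strongest regions, replicate 1 gave 179 regions at 170 pairs and replicate 2 gave 221 at 218 pairs. The lists had 137 pairs in common, 80.6% of those of replicate 1 and 62.8% of those of replicate 2. The share between the ends was 81.6% in replicate 1 and 91.4% in replicate 2, and the median distance between the ends was 471 and 476 bp.

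Most of the words frequent at these summits had a GCGC or ACGC core, although CGAGAC and GCAAAC had neither. The 10 words of 6 letters with the largest difference in share between windows that reach 50 bp to either side of the summits and windows of the same length centred 400 bp away were these. GACGCA was at 46 summits, GCGCCA at 44, GCGCAC at 42, CGAGAC at 41 and GCAAAC at 40, while ACGCGC was at 39, AGCGCG at 38, AACGCG at 38, ACGCAG at 37 and GCGCGC at 34. Words were counted on both strands, and several overlap each other by 5 letters, so their shares are not independent. They were chosen after their values were seen and from the same windows, which inflates the share at these summits relative to any other set. At least 1 of them was found at 167 of 212 summits (78.8%), against 16.5% of the flanking windows. The share was 57.9% at single-gene promoters, 51.7% over all 1500, 40.1% at regions at no promoter and 27.8% at the weaker divergent regions. At the midpoints of the 1804 head-to-head pairs with no pooled region by the rule, it was 20.3%. The nearest word within 200 bp had its centre a median of 16 bp from the summit (n = 192). In the windows that reach 50 bp to either side, 45 of 212 summits had none of the words.

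Single words had lower shares. GACGCA was found at 21.7% of the summits, 2.12% of flanks, 18.0% of single-gene promoter regions and 15.5% of all 1500. GCGCCA was found at 20.8%, 2.12%, 14.9% and 11.7% in the same order, and GCGCAC at 19.8%, 1.42%, 14.3% and 11.3%. The word CTGGCGCA (TGCGCCAG on the other strand) was found at 23 summits (10.8%), against 0.472% of flanks, 4.50% of single-gene promoter regions, 0.579% of weaker divergent regions and 0.387% of regions at no promoter. Words of 8 letters were added after the data were seen, and the ones given were picked from these same summits, which inflates their shares there. The others picked were GCGCCAGC, at 9.91% of the summits and 6.34% of single-gene promoter regions, and AAGTGCGC, at 9.43% and 4.50%. The 10 words of 6 letters were likewise picked at these summits, which also holds for the shares by rank. Within ranks 1 to 500, the share with any of the 10 words was 81.3% at divergent and 71.1% at single-gene promoters. It was 79.1% and 58.8% past rank 500 and up to 1000, and 71.1% and 38.7% past rank 1000.

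**Figure D5:**
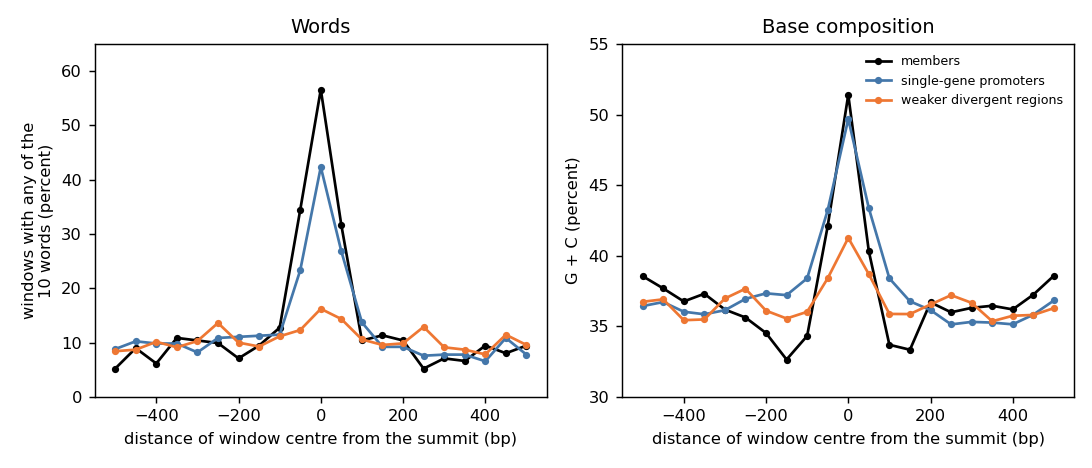
Left, percent of 51 bp windows that hold any of the 10 words, and right, percent G + C, by distance of the window centre from the summit (bp), for the 212 regions (black), single-gene promoter regions (blue) and weaker divergent regions (orange). The words peak at the summit in 56.6% of windows for the 212, 42.3% for single-gene promoters and 16.2% for weaker regions, and G + C of the 212 is 51.4% at the summit and 32.6% at 150 bp to its left.

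Base composition was also higher at the summits than beside them. G + C was 47.9% in the windows around the summits and 36.8% in the flanks. It was 47.4% at single-gene promoters, over all 1500 and at regions at no promoter. At the weaker divergent regions it was 40.4%, and at the midpoints of pairs without a region 33.5%. Any of the 10 words, which were picked at the 212 summits, was found at 78.8% of these and 40.1% of regions at no promoter. The part of base composition in the word shares was not tested. Of the words of known promoter elements, CTGCGTCT, a word of worm promoters, was found at 8.02% of the summits, 0.236% of flanks and 9.82% of single-gene promoter regions. The GA repeat GAGAGA was found at 17.0% of the summits, 5.42% of flanks and 24.0% of all 1500 regions. The CCAAT word was at 19.3% of the summits and 15.8% of flanks. AT-rich words were less frequent at the summits than beside them, with TATAAA at 3.30% and 8.96%, TGATAA at 1.89% and 9.20% and the splice acceptor word TTTTCAG at 5.66% and 19.6%. A match is a run of letters in a window and says nothing of which factor binds there.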

How the data were processed

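Both replicates were ChIP-seq libraries of 1 group, numbered as in the labels. Per the deposited descriptions, the authors called peak and background regions per replicate and on pooled alignments, against 2 control alignments, each list holding 30000 regions with ce11 positions, and made an IDR-filtered peak list from these. The signal of each region is the authors' deposited value. The deposited -log10 of the q value was not used. For the aligner, the peak caller and its IDR threshold, names are not stated in these sources, and depth is unknown.

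Summits were placed against Ensembl release 115 5' ends (WBcel235; 99.9% of 31805 start codons read ATG) with Python 3.11.15, numpy 2.4.6, pandas 2.3.3 and scipy 1.17.1. The nearest end on each strand gave the pair. Summits within 200 bp counted as shared. Shares have exact binomial (Clopper-Pearson) 95% intervals. Counting was tested on simulated data. No test between groups was possible.

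Named pairs are the 12 strongest, the 4 shortest and 4 longest, the overlapping one, those most different between replicates, up to 3 per gene list, and pairs with both genes on lists or with 2 regions. Members and lists were chosen with earlier results of these data known, and comparisons within rank classes, with allowed positions and with pair midpoints were added after seeing the data. Alternatives were other list lengths, windows, transcripts, distances and single replicates. Some regions and sequences that these rules name are not reported here.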

Additional observations from a re-analysis of the deposited data

How the results depend on the processing

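No paired analysis was possible because there was 1 group, so no groups shared replicate numbers. Leaving out a replicate means applying the rule to the other's 1500 strongest regions. This gave 179 to 221 regions, a share between the ends of 81.6 to 91.4%, a distance between ends of 471 to 476 bp, a nearer-end distance of 141 to 152 bp and a relative position of 0.319 to 0.324. A window of 2000 bp upstream to 500 bp downstream gave 329 regions, distances of 648 and 171 bp and a position of 0.256. A window of 500 to 100 bp gave 375 and 119 bp and 0.351, which follows in part from the windows' construction. With the 750 strongest, the values were 467 bp, 153 bp, 0.323 and 87.8% in both replicates, and with the 3000 strongest 492 bp and 48.4% (a longer list reaches weaker regions). On the IDR list they were 469.5 bp, 0.322 and 82.5%, and with 5' ends of all transcripts 485 bp and 0.305. Counting as many strongest regions of each replicate as the IDR list holds gave 54.2% in both, and counting 3000 gave 78.8%. The replicates' summits differed by a median of 16 bp with a 100 bp limit, and also among the 1500 strongest alone. The share between the ends stayed above 81% in every alternative run, and the count with a list gene was 75 to 148. The causes of the other shifts were not tested. Depth, and so the weakest signal that could be seen, is unknown.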

Other observations

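A few pairs held a chemoreceptor gene, of large families known mostly from sensory neurons. Of 1115 chemoreceptor genes in the annotation, 4 were at a region (0.359%), against 2.09% of all protein-coding genes. Of these, 3 are described here, with sri-5 beside rsr-1 (rank 141 in replicate 1 and 130 in replicate 2), srh-2 beside icl-1, a glyoxylate cycle gene (248 and 589), and srh-89 beside F25E5.1 (1832 and 2199). The summit was nearer the chemoreceptor gene at sri-5 (228 against 504 bp), and nearer the partner at srh-2 (252 against 45 bp) and srh-89 (941 against 147 bp). These genes were chosen after their values were seen.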
